A study of Mus musculus with 2 samples.

Results

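The genes described here encode the proteins by which the sarcoplasmic reticulum of the heart muscle cell releases calcium and takes it back. They were chosen by function, with earlier results of these data known: Hrc, Ryr2, Atp2a2, Pln, Casq2, Trdn, Jph2, S100a1, Sri and Asph, 10 of 25004 rows of genes. All 10 were in the deposited counts, but only Hrc, Ryr2, Trdn and S100a1 had more than a few counts. The counts come from 1 library of non-transgenic mouse heart and 1 library of heart whose transgene makes cardiac myosin binding protein-C (cMyBP-C) lacking the C0-C1f region, both from FvB/N mice 12 weeks old. Cardiac myosin binding protein-C is a thick-filament protein that tunes contraction, and C0-C1f is part of its amino terminus. In each library 3 hearts were pooled. Which promoter drives the transgene, and whether the endogenous gene is intact, is not stated in the sources used here. With 1 library per group no difference below has a replicate check, no test of genotype was possible, and every interval covers counting error only. In whole heart, fewer cells of a type and less RNA per cell cannot be told apart.

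At each beat, calcium that enters through the sarcolemma opens the ryanodine receptor, and calcium leaves the sarcoplasmic reticulum to start contraction. The calcium pump SERCA2 returns it to the store, and relaxation follows. Calsequestrin and the histidine-rich calcium-binding protein hold calcium inside the store, triadin and junctin link them to the receptor, and junctophilin holds the reticulum against the transverse tubule.

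The deposited counts were few: the non-transgenic library held 170543 counts and the transgenic one 190824, and 1697 and 2023 genes had at least 10. These are reads assigned to transcripts and not the number of reads sequenced. Levels are given as CPM (counts scaled to a library total of 1000000) after TMM scaling of the library sizes, so that 1 count stood for 6.22 CPM in the former and 4.94 CPM in the latter. Mybpc3, the gene of cMyBP-C, had 344 and 398 counts, which do not separate the transgene from the endogenous gene and so check nothing about the labels. Of 10 cardiomyocyte markers, Tnnt2 and Myl3 were at 0 in both libraries and Myh6 and Mb had at most 1 count, while Myl2, Actc1, Tnni3 and Tnnc1 were among the well-counted genes. The summed level of these markers was 27876 CPM in non-transgenic and 37338 CPM in transgenic heart, while Myh7 had 27 and 20 counts. The 6 fibroblast markers summed to 249 and 148 CPM, the 6 endothelial markers to 466 and 351 CPM, the 6 smooth muscle and pericyte markers to 615 and 964 CPM and the 6 macrophage markers to 87.0 and 104 CPM. Single genes carried the difference in both of the last sums: Rgs5 had 65 and 157 of 99 and 195 counts while Tagln had 28 and 26, and Lyz2 had 6 and 15 of 14 and 21. The 4 atrial markers summed to 55.9 and 153 CPM, all of it Nppa with 9 and 31 counts. The ratio of Nppa was 1.5-fold or more and its interval left out 1. By the same measure 1 cardiomyocyte marker and 1 smooth muscle and pericyte marker were also higher, and 1 fibroblast marker was lower. The 8 skeletal muscle markers summed to 112 and 93.9 CPM, the 4 adipocyte markers to 0 and 4.94 CPM, and the 4 red blood cell markers were at 0. Pecam1, Myh11, Pdgfrb, Kcnj8, Adgre1, Myl4, Myl7 and Sln were at 0 in both. The part of these marker shifts in the results below was not tested.

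The members fell into a counted and a nearly uncounted group, and the division was the same in both libraries. Together they had 893 counts in non-transgenic and 1093 in transgenic heart, 0.524% and 0.573% of all counts. Hrc alone held 66.6% and 62.5% of the members' counts, and Hrc, Ryr2, Trdn and S100a1 together held 99.2% and 99.5%. Atp2a2, Pln, Jph2 and Asph had between 0 and 4 counts in a library, and Casq2 and Sri had none. A count of 0 allows a level of up to 3 counts as a one-sided 95% limit, which is 18.6 CPM in non-transgenic and 14.8 CPM in transgenic heart.

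**Figure D1:**
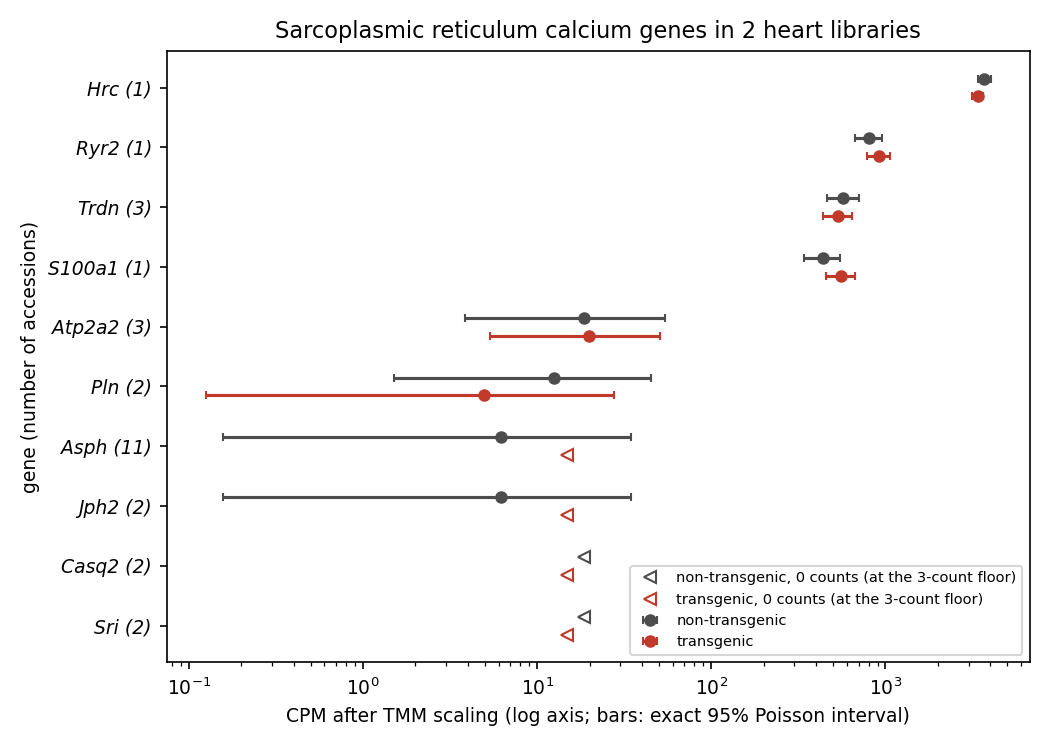
Level of each of the 10 genes in the non-transgenic (grey) and transgenic (red) library, in CPM after TMM scaling on a log axis, with exact 95% Poisson intervals of the count; open triangles mark 0 counts, drawn at the floor of 3 counts, and the number of RefSeq accessions of each gene is in brackets. Hrc, Ryr2, Trdn and S100a1 lie between 435 and 3699 CPM and the other members between 0 and 19.8 CPM.

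Hrc encodes the histidine-rich calcium-binding protein, which binds calcium in the lumen of the sarcoplasmic reticulum and interacts with triadin and the pump. Its gene lies on chromosome 7, 45335290 to 45338974, plus strand (GENCODE on GRCm38, the build also called mm10). Of the 738 codons of its coding sequence, 82 are for histidine and 227 for aspartate or glutamate. The in-frame stretch of 50 codons with the most histidine codons is shown because it is the feature for which this most counted member is named. It is from 1 exon, chr7:45336000-45336149, codons 192 to 241, with the 14 histidine codons in capitals.
Hrc: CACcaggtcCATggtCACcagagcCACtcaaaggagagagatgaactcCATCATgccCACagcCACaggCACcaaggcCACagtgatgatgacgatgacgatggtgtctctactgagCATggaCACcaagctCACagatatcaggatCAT
Hrc was counted 595 times in non-transgenic and 683 times in transgenic heart, ranks 41 and 38 among all genes by count. This is 3699 CPM (95% Poisson interval 3408 to 4008) and 3376 CPM (3127 to 3639), and the intervals overlap. The ratio of transgenic to non-transgenic was 0.913 (95% counting interval 0.816 to 1.02), so counting error leaves room neither for a 1.5-fold rise nor for a 1.5-fold fall between these libraries. The nearest genes on the opposite strand are Ppfia3, 148 bp away, with 1 count in each library, and Trpm4, 1510 bp away, with 2 in each.

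Ryr2 encodes the cardiac ryanodine receptor, the channel through which calcium leaves the sarcoplasmic reticulum (chromosome 13, 11553102 to 12106945, minus strand). The count was 129 in non-transgenic and 185 in transgenic heart, or 802 CPM (670 to 953) and 914 CPM (787 to 1056). The transgenic value was the higher, and the intervals overlap. The ratio was 1.14 (0.906 to 1.44). No opposite-strand exon lies within 5 kb of its exons.

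S100a1 encodes a small calcium sensor of the EF-hand family that is known to act on both the ryanodine receptor and the pump (chromosome 3, 90511034 to 90514392, minus strand). It had 70 and 112 counts, or 435 CPM (339 to 550) and 554 CPM (456 to 666). The ratio of 1.27 (0.935 to 1.74) was the highest among the members, and its counting interval holds both no difference and a 1.5-fold rise. S100a13 lies head to head with it on the other strand. In GENCODE 43 bp separate their annotated ends, whereas the RefSeq spans overlap by 98 bp, so reads from that stretch could not be assigned with certainty. S100a13 had 5 and 9 counts and a ratio of 1.43 (0.431 to 5.44).

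Trdn encodes triadin, which anchors calsequestrin to the ryanodine receptor (chromosome 10, 33080554 to 33476709, plus strand). It had 92 and 108 counts over 3 accessions, or 572 CPM (461 to 701) and 534 CPM (438 to 645), levels whose intervals overlap widely. The ratio was 0.933 (0.700 to 1.25). Most of its counts lay on the long transcript NM_029726, with 72 and 78 counts, which is 78.3% (exact Clopper-Pearson interval 68.4 to 86.2) and 72.2% (62.8 to 80.4) of the gene's counts. The short transcript NM_001364697 had 13 and 18 counts and NM_001364696 had 7 and 12. The shares of the 3 transcripts overlapped between the libraries within these intervals. D830005E20Rik, which lies in the span of Trdn on the opposite strand but shares no exon with it, had 2 and 1 counts.

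**Figure D2:**
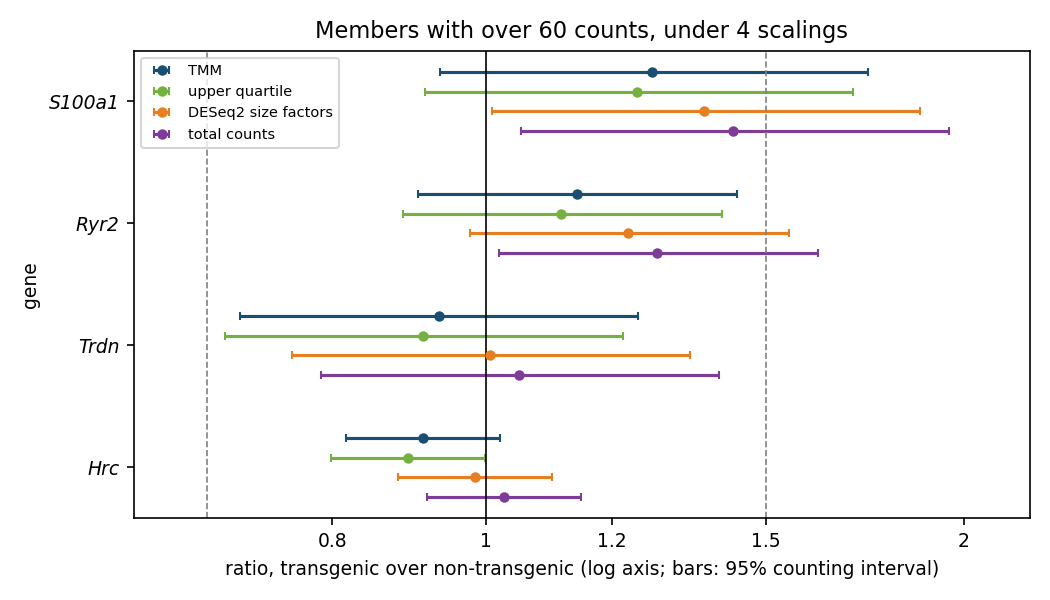
Ratio of transgenic to non-transgenic for Hrc, Trdn, Ryr2 and S100a1 on a log axis, with 95% counting intervals, under TMM, upper-quartile, DESeq2 and total-count scaling; dashed lines mark 1.5-fold. Under TMM scaling all 4 intervals include 1, and no point reaches 1.5-fold under any of the 4 scalings.

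None of the members was called. A gene had a ratio if it had more than 3 counts in a library, and was called where the ratio reached 1.5-fold in either direction and its interval left out 1. By this rule 5 of the 10 members had a ratio, 0 were higher, 0 were lower and 5 were neither, against 3.42% higher and 5.9% lower among 4236 genes with a ratio (9.32% in either direction). With so few members, 0 calls is near that background. Among the 513 genes with 100 counts or more over both libraries, which include Hrc, Ryr2, Trdn and S100a1, 5.26% were higher and 13.6% lower (18.9% in either direction). The median log2 ratio was 0.08 over the 5 members, which is the value of Atp2a2 with its 3 and 4 counts, and 0.05 over all genes with a ratio. Atp2a2 passed the rule by its transgenic count only. With at least 1 count in each library, which lets in Pln, the median was -0.01 over 6 members and -0.11 over all such genes. Over the 4 members with at least 10 counts summed it was 0.04, against -0.04 over all genes with at least 10 counts summed. Over the 513 genes with 100 counts or more it was -0.19. Of these, 364 have an exon overlapping one on the opposite strand, with a median of -0.29, 8 higher and 58 lower. None of the 4 members is among them. The 85 with such an exon only within 5 kb, as for Hrc, Trdn and S100a1, had a median of 0.08, 10 higher and 6 lower. The 48 with none within 5 kb, as for Ryr2, had a median of 0.09, 7 higher and 3 lower. Pln, Jph2 and Asph had 1 to 3 counts in both libraries summed and Casq2 and Sri had none. By the rule above these 5 have no ratio, and the figures do not describe phospholamban or calsequestrin.

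The sign of the smaller ratios depended on how the libraries were scaled. DESeq2 size factors and total counts shifted the median over all genes by 0.11 and 0.17 (log2) and turned the share of higher calls among all calls from 36.7% to 54.1% and 62.2%. Relative to the median gene, Hrc was at -0.18, Trdn at -0.15, Ryr2 at 0.14 and S100a1 at 0.30 on the log2 scale. These values are the same under each of the 4 scalings by construction, since a scaling multiplies every ratio by the same factor. The ratio of Hrc was 0.984 under DESeq2 scaling, 0.893 with upper-quartile factors (0.799 to 0.998, below 1) and 1.03 with total counts (0.918 to 1.15). That of Trdn crossed 1 in the same way, to 1.01 under DESeq2 scaling and 1.05 under scaling by total counts. S100a1 stayed above 1 under all 4, and its interval lay wholly above 1 under DESeq2 scaling (1.37, 1.01 to 1.88) and total counts (1.43, 1.05 to 1.96). Ryr2 also stayed above 1, with an interval above 1 for total counts only (1.28, 1.02 to 1.62). Centred on the median of genes of the same strand class, an alternative added after the values were seen, Ryr2 was at 0.978 and S100a1 at 1.17.

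The proportion between members does not depend on scaling. S100a1 differed most from Hrc: its count was 0.118 of that of Hrc in non-transgenic and 0.164 in transgenic heart, a 1.39-fold difference (exact conditional interval 1.00 to 1.95). The count of Ryr2 was 0.217 and 0.271 of that of Hrc, a 1.25-fold difference (0.966 to 1.62). The count of Trdn was 0.155 and 0.158 of that of Hrc, a 1.02-fold difference (0.750 to 1.40). Of the 6 pairs among these 4 genes, the pair of S100a1 and Hrc was the only one whose interval left out 1. Its lower end is at 1.00 when rounded, and the intervals are not adjusted for the number of pairs.

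Per length, the order of the members changed. Levels were compared per kilobase of exon only for the 3 members with a single accession, as unscaled counts per kb. Hrc had 247 counts per kb (227 to 267) in non-transgenic and 283 (262 to 305) in transgenic heart, over 2411 exon bases. S100a1 came next with 103 (80.6 to 131) and 165 (136 to 199) over 677 bases, and Ryr2, with 16814 bases, was lowest with 7.67 (6.41 to 9.12) and 11.0 (9.47 to 12.7). The intervals of the 3 genes do not overlap in either library, and the order is Hrc, S100a1, Ryr2 in both, whereas by raw count Ryr2 comes before S100a1. These intervals cover counting error only, and the lengths are those of the GENCODE models. How evenly reads covered each transcript was not tested.

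The members with almost no counts include the best-known genes of the reticulum. Atp2a2, which encodes the pump SERCA2 (chromosome 5, 122453513 to 122502225, minus strand), had 3 and 4 counts, all on the non-coding transcript NR_027838, and both of its coding transcripts were at 0. Its ratio of 1.06 has a counting interval of 0.179 to 7.24 and gives no information on the pump. Pln encodes phospholamban, the small membrane protein that restrains the pump (chromosome 10, 53337667 to 53345987, plus strand), and had 2 and 1 counts. Casq2, cardiac calsequestrin (chromosome 3, 102086415 to 102146514, plus strand), was at 0 in both libraries, as was Sri, which encodes sorcin, a calcium-binding regulator of the ryanodine receptor (chromosome 5, 8046078 to 8069379, plus strand). Jph2, junctophilin 2 (chromosome 2, 163336242 to 163397993, minus strand), had 1 and 0 counts. Asph, whose transcripts encode junctin, junctate and aspartyl beta-hydroxylase (chromosome 4, 9448069 to 9669344, minus strand), had 1 and 0 counts over 11 accessions. No fold is given where both libraries are at or under the floor of 3 counts.

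What the nearly uncounted members share is that RefSeq lists several transcripts for each. The counts were made per transcript accession, and how reads shared by several transcripts were treated is not stated in the sources used here. Hrc, Ryr2 and S100a1 have 1 accession each and between 182 and 1278 counts in both libraries summed. The other 7 members have 2 to 11 accessions each, and of them only Trdn had 10 counts or more, 1 of 7. Among all genes, 15.7% of 17075 genes with 1 accession and 3.13% of 7929 genes with several had 10 counts or more over both libraries.

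The exon bases that belong to a single transcript can be laid beside its counts. Of the members' 28 accessions, 26 matched 1 GENCODE transcript, and its exon bases that lie in no other counted transcript on either strand were taken as its own. The 9 transcripts with no own base, 8 of Asph and 1 of Atp2a2, all had 0 counts. In genes with several accessions, 3 of the 7 transcripts with 1 to 200 own bases had a count, and 3 of the 7 with more than 200 did. One accession each of Casq2 and Trdn had no match, so the own bases of their other transcripts are upper bounds. The 2 coding transcripts of Atp2a2 have 51 and 0 own bases, none of them coding, and NR_027838 has 448. The transcripts of Jph2 have 44 and 100 own bases and those of Sri 113 and 366. Other transcripts had many own bases and next to no counts: NM_009814 of Casq2 has at most 2556 and was at 0, NM_133723 of Asph has 787 and was at 0, and NM_001177856 of Asph has 1975 and 1 count.

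In Pln the coding sequence is carried whole by both transcripts. It is printed because none of its 156 bases (stop codon left out, 52 codons, chr10:53343864-53344019, plus strand, GENCODE on GRCm38) belongs to 1 accession alone.
Pln: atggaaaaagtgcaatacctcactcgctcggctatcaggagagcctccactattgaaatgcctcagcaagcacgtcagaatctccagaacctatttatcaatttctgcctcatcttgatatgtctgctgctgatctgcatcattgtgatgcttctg
The 2 and 1 counts of Pln lay on NM_001141927, which has 153 own bases, and NM_023129 had none although 1716 bases were its own by the GENCODE models. So own bases do not order the counts within Pln, which are only 3 over both libraries, and RefSeq ends may differ from those of GENCODE. The exons of Pln also share 141 bp with those of Cep85l on the opposite strand, which had 6 and 4 counts. They share 1644 bp with those of Gm47644, also on the opposite strand, which has no row under this name.

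Sri and Trdn show the other end of the range, with coding bases that mark 1 transcript. For Sri the start of the coding sequence of NM_001080974 is its own (51 bases, chr5:8056589-8056639, plus strand), and no read was counted for it. For Trdn the end of the coding sequence of NM_001364697 is its own among the matched transcripts (32 bases, chr10:33200223-33200254, plus strand), and the longest own coding piece of at most 60 bases in NM_029726 has 54 bases (chr10:33258087-33258140, plus strand). The own bases of these transcripts of Trdn come to at most 151 and 3483. The sequences are shown in lower case with nothing marked.
Sri NM_001080974: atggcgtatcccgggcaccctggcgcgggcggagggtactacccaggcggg
Trdn NM_001364697: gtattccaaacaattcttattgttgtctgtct
Trdn NM_029726: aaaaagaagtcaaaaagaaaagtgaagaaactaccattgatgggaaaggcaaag
The part of shared transcripts in the low counts of Atp2a2, Pln, Casq2, Jph2, Sri and Asph was not tested, and a count near 0 does not show that these genes were barely expressed.

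**Figure D3:**
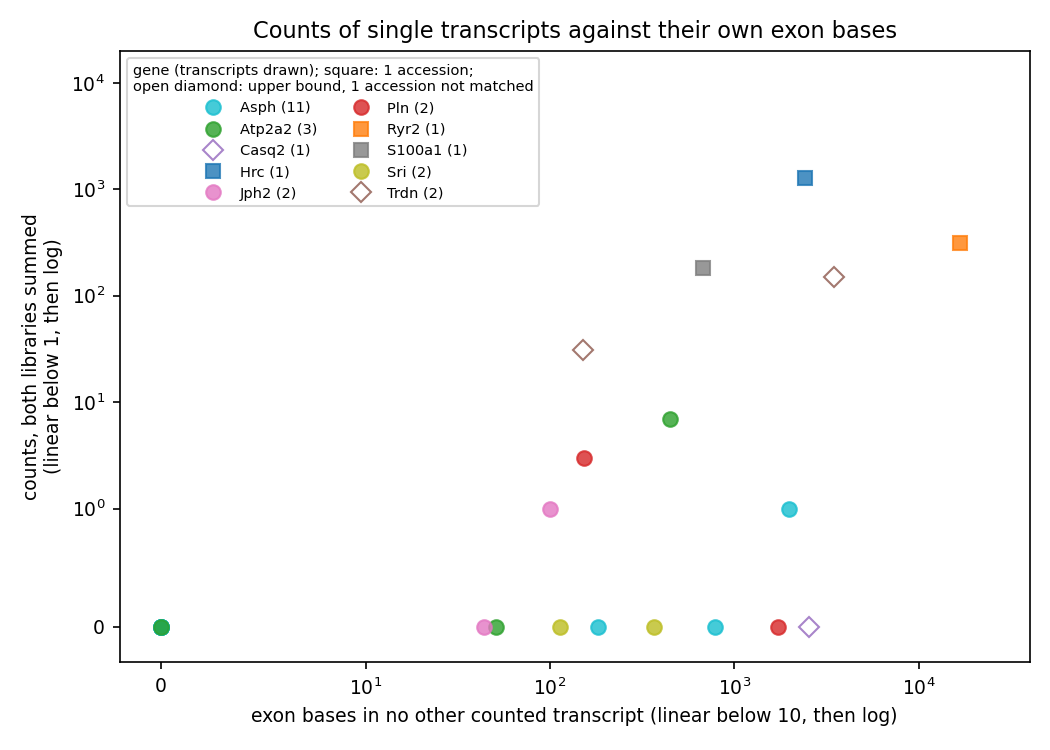
Counts of each matched transcript in both libraries summed against the exon bases found in no other counted transcript, both axes linear near 0 and logarithmic beyond; colours mark genes, squares mark genes with 1 accession, and open diamonds (Casq2, Trdn) mark upper bounds. The 9 transcripts with 0 own bases are drawn on one another at the origin, and Hrc stands highest with 1278 counts.

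Opposite-strand neighbours of the members that have a row in the counts had at most 44 counts in a library. Gm47644, Gm43361 and Gm25677, which share exon bases with Pln, Atp2a2 and Asph respectively, have no row under these names. The strand setting of the counting is not stated in the sources used here, and the library kit keeps strand. A member's neighbours on the other strand were therefore examined within 10 kb. Of the 25004 rows of genes, 5864 have an exon that overlaps an exon on the opposite strand. Among the 513 genes with 100 counts or more over both libraries, 364 do. Whether a member's counts are reads of its own strand was not tested. Exons of Atp2a2, Pln and Asph overlap exons on the opposite strand; Hrc, Trdn, S100a1 and Sri have such an exon within 5 kb, and Ryr2, Casq2 and Jph2 have none. Of the opposite neighbours with a row, the most counted was Vangl1, 7069 bp from Casq2, with 44 and 41 counts and a ratio of 0.741 (0.472 to 1.16). Clvs1, which shares 2302 bp of exon with Asph, and Adam22, 2973 bp from Sri, had 0 in both libraries. Reads assigned to the other strand outside any listed transcript are not in the deposited values.

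Among other genes of the calcium cycle 3 were higher and 1 was lower. The list of 77 genes held channels, exchangers, kinases, phosphatases and organisers of the dyad without the members; 76 were found, 41 had a count and 26 had a ratio. Against the background of 3.42% higher and 5.9% lower, 3 of these 26 were higher, 1 was lower and 22 were neither. The median log2 ratio was 0.37 over the 26 and 0.05 over all genes with a ratio. Itpr1 (2 and 5 counts), Itpr3 (1 and 4) and Selenon (1 and 5) passed the rule by their transgenic counts only. No listed gene passed by its non-transgenic count only. With at least 1 count in each library the median was 0.13 over 33 listed genes and -0.11 over all such genes. With at least 10 counts summed it was 0.35 over 21 listed genes and -0.04 over all such genes. As for the members, only genes with a ratio enter the median of 0.37. Several main genes (Slc8a1, the sodium-calcium exchanger, Cacna1c, the L-type channel, and Camk2d) were at 0 in both libraries, with 4, 11 and 9 accessions. Fkbp1b, Ryr1, Sln, Mrln, Gem, Jph4 and Jsrp1, with 1 accession each, were also at 0 in both. A count was found for 82.9% of 41 listed genes with 1 accession and 20.0% of 35 with several. Among all genes the shares were 41.1% and 14.9%.

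The called genes had low counts. Of the 3 higher ones, 2 were listed as pump regulators or adrenergic genes, a group that holds 10 of the 26 listed genes with a ratio. Akap6 encodes mAKAP, which anchors protein kinase A near the ryanodine receptor and at the nuclear envelope. It had 14 and 37 counts and a ratio of 2.10 (1.11 to 4.21). Ppp1r3a encodes a subunit that targets protein phosphatase 1 to glycogen and the sarcoplasmic reticulum, and had 10 and 28 counts and a ratio of 2.23 (1.05 to 5.14). Neither has an exon of another gene opposite within 5 kb. Genes of that strand class had a median log2 ratio of 0.22, and centred on it both calls were lost.

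Vdac2, an outer mitochondrial membrane channel that passes calcium, had 24 and 51 counts and a ratio of 1.69 (1.02 to 2.87). Its exons share 25 bp with Comtd1 on the opposite strand, which had 57 and 56 counts, so its count is uncertain. Its call was lost with upper-quartile factors. Micu2, a regulator of the mitochondrial calcium uniporter, had 15 and 7 counts and a ratio of 0.371 (0.128 to 0.967), and its call was lost with DESeq2 size factors and total counts.

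**Figure D4:**
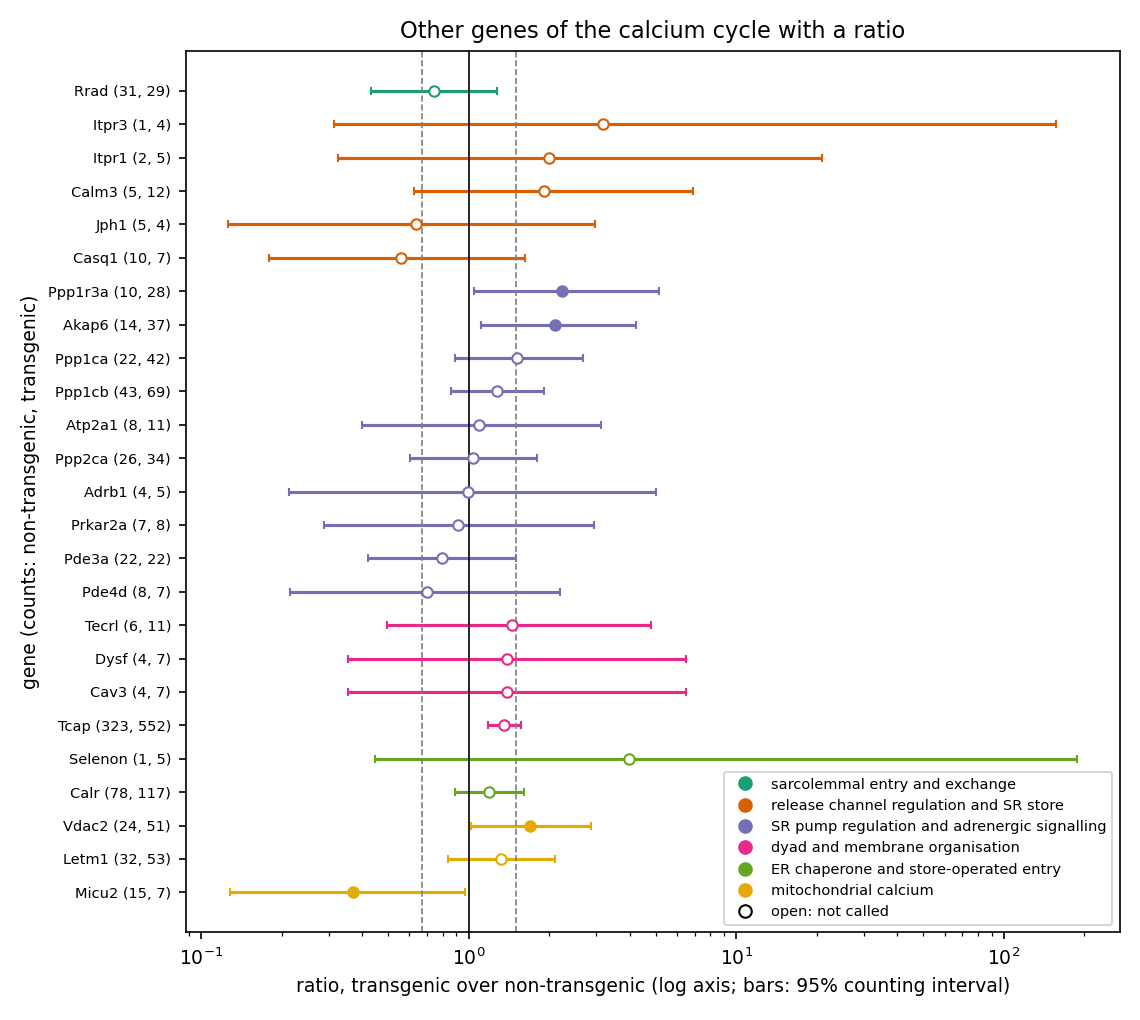
Ratio of transgenic to non-transgenic for 25 of the 26 listed genes of the calcium cycle with a ratio, with 95% counting intervals on a log axis, coloured by role, with filled points for called genes; dashed lines mark 1.5-fold, and the counts in non-transgenic and transgenic heart are beside each name. Of the genes drawn Tcap has the narrowest interval, and the called genes are Ppp1r3a, Akap6, Vdac2 and Micu2.

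By role, of 7 dyad and membrane organisers, 5 had a ratio and none was called. Tcap encodes telethonin, which lies at the Z-disc beside the transverse tubule, and had 323 and 552 counts and a ratio of 1.36 (1.18 to 1.56). Its interval lay above 1, and with total counts it was called at 1.53. Tecrl, an endoplasmic reticulum protein linked to inherited arrhythmia, had 6 and 11 counts and a ratio of 1.46 (0.494 to 4.80).

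Of the 21 pump regulators and adrenergic genes found, 10 had a ratio, 2 were higher and 8 were neither. The catalytic subunits of protein phosphatase 1, which removes phosphate from phospholamban, had ratios of 1.28 (0.859 to 1.91) for Ppp1cb with 43 and 69 counts and 1.52 (0.886 to 2.67) for Ppp1ca with 22 and 42. The exons of Ppp1ca share 225 bp with Rad9a on the opposite strand, which had 913 and 891 counts, so the count of Ppp1ca is uncertain. Ppp2ca, the catalytic subunit of protein phosphatase 2A, had 26 and 34 counts and a ratio of 1.04 (0.606 to 1.80). Sln, the atrial inhibitor of the pump, was at 0 in both libraries.

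Of 23 genes of the release channel's regulation and the store, 5 had a ratio and none was called. Casq1, the skeletal muscle calsequestrin, had 10 and 7 counts and a ratio of 0.557 (0.180 to 1.62), and Jph1 had 5 and 4 and a ratio of 0.636 (0.126 to 2.96). Calm3, 1 of the calmodulin genes, had 5 and 12 and a ratio of 1.91 (0.626 to 6.91). These intervals are too wide to show a difference at such counts.

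The remaining roles held few counted genes. Of 8 sarcolemmal entry and exchange genes, Rrad, which restrains the L-type channel, had 31 and 29 counts and a ratio of 0.744 (0.432 to 1.28), Rem1 had 0 and 2 counts, and the others had none. The 3 plasma membrane pumps had no count. Calr, calreticulin, a calcium-binding chaperone of the endoplasmic reticulum, had 78 and 117 counts and a ratio of 1.19 (0.888 to 1.61). Selenon had 1 and 5 counts and Calu 3 in each library. Letm1, an ion exchanger of the inner mitochondrial membrane, had 32 and 53 counts and a ratio of 1.32 (0.834 to 2.11).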

How the data were processed

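Messenger RNA of 2 heart libraries was measured, 1 per group. The authors deposited unnormalised read counts for each RefSeq transcript, made with STAR, HTSeq and mm10, per the submitters' processing notes. Versions, annotation and strand setting: not given in the sources used here. Of 41449 accessions, RefSeq's gene table for GRCm38.p6 named 41252 and GENCODE M21 named 99; 98 without a name, with 1.81% and 1.66% of counts, were kept as rows, and counts were summed per gene. Unused sample columns numbered 0.

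Library sizes were scaled with TMM (edgeR 4.0.16, R 4.3.3; factors 0.943 and 1.06). Ratios carry exact 95% Clopper-Pearson intervals (scipy 1.17.1), proportions between members exact conditional ones. No p-value was computed. PCR reads without molecular identifiers are not independent molecules. The calculations were tested on simulated data. As alternatives, size factors of DESeq2 1.42.0, upper-quartile and total scaling, the most counted accession, other minimum counts and other call rules were tried. Sequences and positions are those of GENCODE M21.

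The members and lists were chosen with earlier results of these data known. Named were all members, their opposite-strand neighbours, and in each role of the calcium list the 3 most counted genes and those called. Genes named at 0, Itpr1, Itpr3, markers, Comtd1 and Rad9a were added after their values were seen. Strit1 matched no row. A gene that the rule takes is not reported here.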

Additional observations from a re-analysis of the deposited data

How the results depend on the processing

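No member was called under any of the 11 alternatives, and the members' median log2 ratio ran from -0.03 to 0.25. For the 2-fold rule, the minimums of 10 and 60 counts summed and the setting without Hrc, the absence of calls was fixed in advance. These settings can only take calls away. Of the member ratios, Hrc alone moved beyond its counting interval, to 1.03 with total counts. The calls of the calcium list went from 4 to 11 at 1.5-fold without the interval, to 2 when centred within strand class and to 1 with at least 60 counts summed, the last 2 settings being chosen after seeing the data; its median ran from 0.13 to 0.54. Leaving out replicates was not possible with 1 library per group. No paired analysis was possible because each group has 1 library. Genes with few counts have wide intervals, as for Atp2a2 at 1.06 (0.179 to 7.24).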
